A study of Mus musculus with 10 samples.

Results

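The 39 Hox cluster genes of the mouse were followed through the reprogramming of fibroblasts and compared with embryonic stem cells. They were taken by symbol (Hoxa, Hoxb, Hoxc or Hoxd followed by a number) from the 45706 genes quantified, and they carry 87 of the 109617 quantified transcripts. On GRCm38 the HoxA cluster holds 11 of them (chr6:52155590-52260880), HoxB 10 (chr11:96194316-96368256), HoxC 9 (chr15:102921103-103036852) and HoxD 9 (chr2:74668310-74765142). RNA sequencing covered 5 groups of 2 libraries each, all of the strain background C57BL/6 x 129. The MEF group was embryonic fibroblasts of genotype OKSM Col1a1/M2rtTA ROSA26 in MEF medium without doxycycline, unsorted. The OKSM cassette in the Col1a1 locus encodes the reprogramming factors Oct4, Klf4, Sox2 and Myc, and M2rtTA, in the Rosa26 locus, turns it on when doxycycline is added. The D3, D6 and D9 groups were cells of the same genotype at days 3, 6 and 9 in ESC medium with doxycycline at 1 µg/ml and ascorbic acid at 50 µg/ml, taken unsorted at D3 and sorted for SSEA+ at D6 and D9. The ESC group was the V6.5 embryonic stem cell line in ESC medium, grown on irradiated feeder cells and unsorted, without the cassette in its label.

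Hox genes encode homeodomain transcription factors that set position along the body axis. Within a cluster they lie in the order of their numbers, low numbers being used early and toward the head and high numbers later and toward the tail and limb tips. Genes that share a number in different clusters are paralogs. Adult and embryonic fibroblasts keep the Hox pattern of the place they came from, whereas in embryonic stem cells the clusters are largely silent and covered by Polycomb repressors. Numbers 1 to 3 are called anterior here (8 genes), 4 to 8 central (15) and 9 to 13 posterior (16).

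Total estimated reads were 29585876 to 38275024 per library, of which the Hox genes took between 3257 (ESC replicate 1) and 13848 (MEF replicate 2). A Hox gene at a low level therefore rests on few reads. The 14 fibroblast genes checked summed to 9660 and 10100 TPM (an abundance scaled for transcript length and library size) in MEF, 603 and 632 at D3, 30.5 to 32.2 at D6, 14.2 and 14.3 at D9, and 859 and 907 in ESC, where each of the 14 was above 0. The ESC were grown on feeder cells, whose kind the labels do not give, and the part of feeder RNA in the Hox values was not tested. All 8 pluripotency genes checked were called higher at D9 than in MEF, with 24.1% over all tested genes. All 8 were also called higher in ESC than at D9, with 18.6% over all. They summed to 0.57 and 0.841 TPM in MEF, 98.0 and 99.3 at D9, and 2600 and 2620 in ESC. Sex-linked genes set MEF apart: Xist, the RNA that silences an X chromosome, stood at 0.0455 and 0.175 TPM in MEF and at 148 to 181 TPM in the 6 induced libraries, and Y-linked Ddx3y at 11.3 and 10.8 TPM against 0.00566 to 0.0242 TPM. ESC also differed from D9, with Xist at 0.908 and 0.966 TPM and Ddx3y at 3.09 and 3.7 TPM. Induction and the embryo of origin cannot be told apart in the comparisons of induced cells with MEF, nor cell state and origin in that of ESC with D9. Nothing states whether the 2 libraries of a group came from separate cultures, so p-values measure only the spread between these libraries. In whole cultures and sorted populations, fewer cells that express a gene and less RNA per cell cannot be told apart.

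Summed over the 39 genes, Hox RNA stood at 122 TPM in both MEF libraries, 108 and 115 at D3, 67.7 and 71.4 at D6, 32.7 and 34.0 at D9, and 30 and 28.4 in ESC. The log2 ratio of the group mean to MEF was -0.13 at D3, -0.81 at D6, -1.87 at D9 and -2.06 in ESC. The small change at D3 joined unequal changes by cluster. HoxA went from 27.7 and 28.3 to 36.8 and 40.0 TPM, whereas HoxC went from 52.3 and 52.8 to 37.2 and 41.9 TPM and HoxD from 9.81 and 9.82 to 5.33 and 5.01 TPM. As a share of all Hox RNA, HoxC went from 42.8% and 43.3% in MEF to 14.3% and 14.4% at D9, and HoxA from 22.6% and 23.2% to 52.3% and 53.1%. In ESC, HoxB held the largest share, 39.6% and 40.9%. These sums have no test. In MEF, 22 of the 39 genes reached a mean of 1 TPM and only Hoxb9, Hoxc6 and Hoxc8 reached 10 TPM, and at D9 no gene reached 5 TPM.

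**Figure D1:**
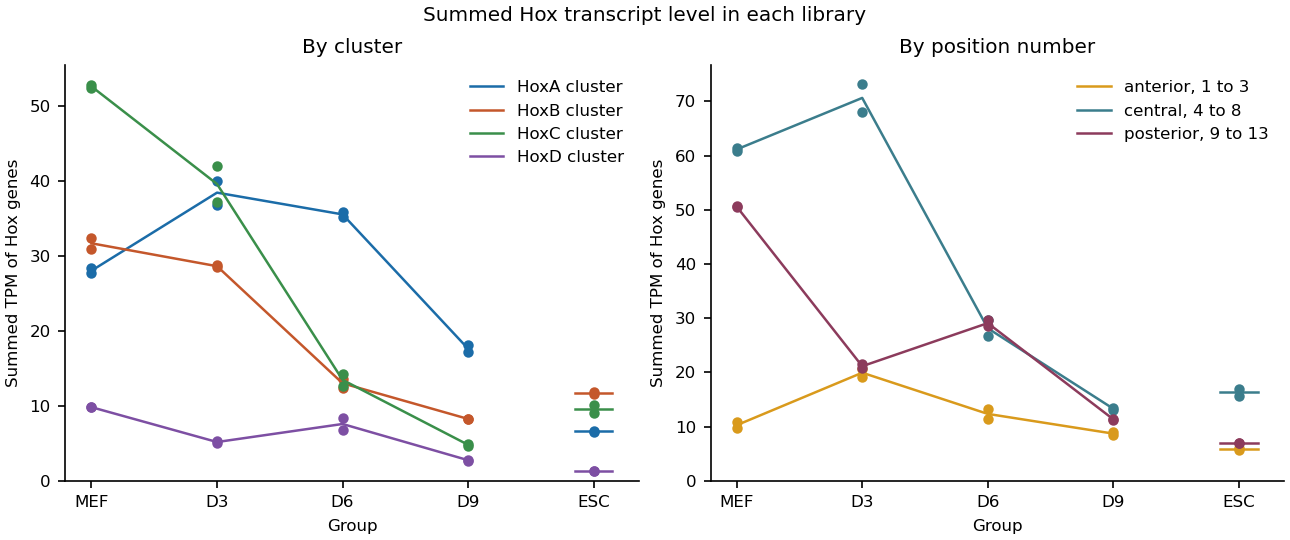
Summed TPM of the Hox genes by cluster (left) and by position number (right). Points are libraries, lines join the group means from MEF to D9, and the dash at ESC is its mean. HoxC is above 52 TPM in MEF and below 5 TPM at D9 while HoxA is highest at D3, and the posterior sum dips at D3 (20.8 and 21.5 TPM) below its D6 level (29.6 and 28.6 TPM).

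**Figure D2:**
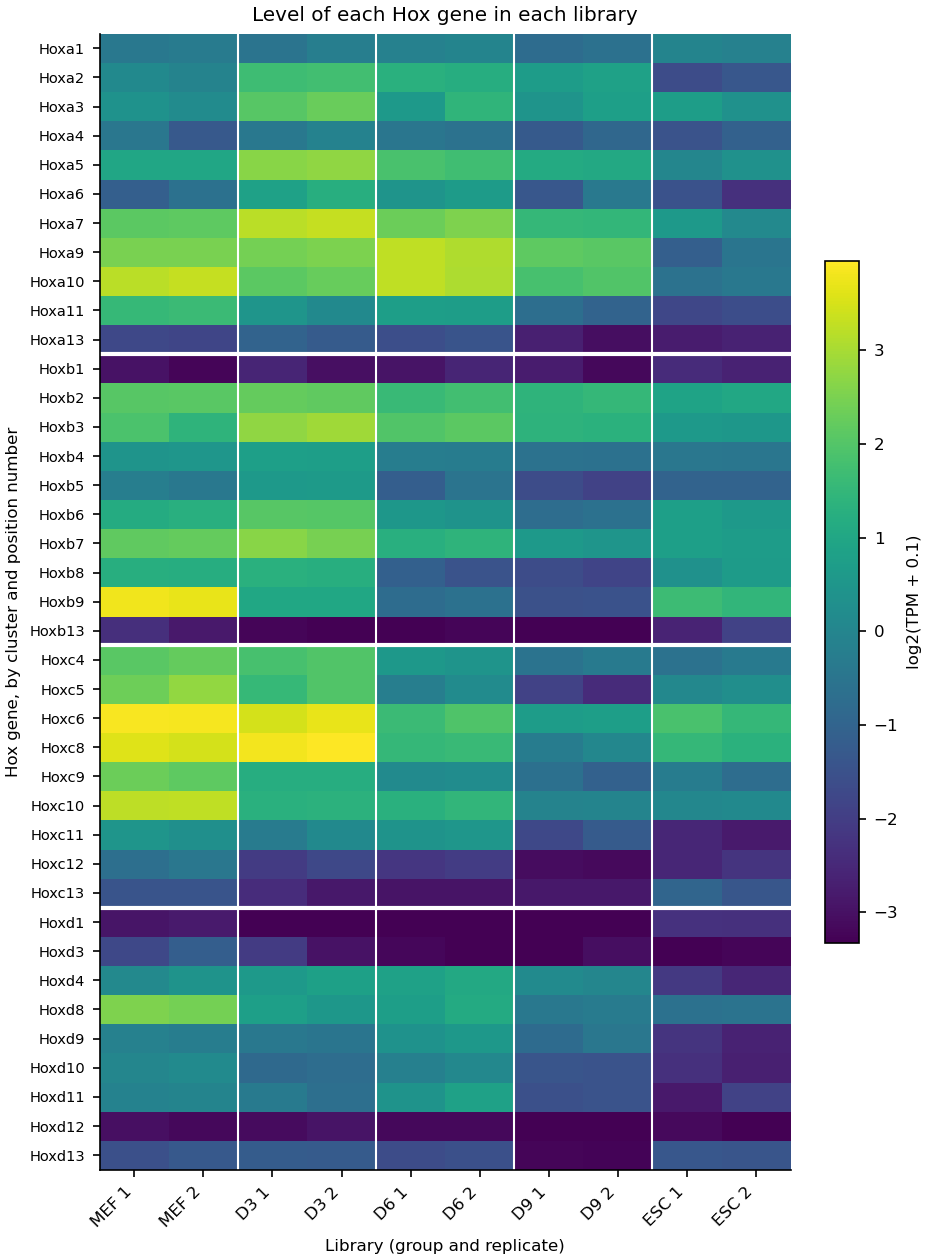
Level of each Hox gene in each of the 10 libraries, as log2(TPM + 0.1), with genes ordered by cluster and number. In MEF the brightest rows are Hoxb9, Hoxc6 and Hoxc8, at D3 Hoxa7, Hoxc6 and Hoxc8, and at D6 Hoxa9 and Hoxa10.

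At D3, 3 of the 4 central HoxA genes were higher than in MEF (Hoxa4 was not called), and 9 of the 15 posterior genes tested were lower. A gene was called where edgeR's adjusted p (Benjamini-Hochberg) was under 0.05 and its level changed by 1 or more on the log2 scale, and 37 of the 39 genes could be tested. Hoxb1 and Hoxd12 could not, with at most 11 and 5 reads in a library. Between D3 and MEF, 8 Hox genes were higher and 11 lower, against a background of 14.6% and 14.5% of the 20165 genes tested. The 8 were Hoxa2, Hoxa3, Hoxa5, Hoxa6, Hoxa7, Hoxa13, Hoxb3 and Hoxb5. The 1 posterior gene called higher was Hoxa13, and of the 15 central genes 1 was lower and 4 higher. The median log2 fold change was -0.12 over the Hox genes and 0.08 over all tested genes.

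Hoxa5, which acts in the lung and the neck skeleton, read 1.88 and 1.89 TPM in MEF and 6.17 and 6.55 TPM at D3. Thus both D3 libraries lay above both MEF libraries, and the log2 difference was 1.72 ± 0.1 (SE, edgeR adjusted p = 1.4e-09). Hoxa7, a trunk gene, went from 4.22 and 4.3 to 9.13 and 9.9 TPM, a log2 difference of 1.21 ± 0.09 (edgeR adjusted p = 1.6e-08). Hoxa2, which patterns the hindbrain and pharyngeal arches, went from 1.0 and 0.846 to 3.16 and 3.26 TPM, and Hoxa3, needed for thymus and parathyroid, from 1.2 and 1.03 to 4.06 and 4.79 TPM. Their log2 fold changes were 1.77 ± 0.15 and 1.55 ± 0.11. Hoxa6 was lower in level, at 0.356 and 0.553 TPM in MEF and 1.71 and 2.28 TPM at D3. In HoxB, Hoxb3 moved from 3.59 and 2.57 to 6.56 and 7.4 TPM (log2 fold change 1.15 ± 0.07), and Hoxb5 from 0.772 and 0.649 to 1.39 and 1.47 TPM (1.08 ± 0.24). The Hoxb5 call was lost without MEF replicate 2 (log2 fold change 0.94, edgeR adjusted p = 0.017). Hoxa13, a gene of digits and genitalia, stood apart from its posterior neighbours with 12 and 13 reads in MEF and 63 and 42 at D3.

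In HoxA and HoxB, genes called higher were followed along the cluster by genes called lower, with Hoxa13 at the end of HoxA an exception. HoxC and HoxD held no gene called higher, and in HoxD the most anterior gene, Hoxd1, was among the lower ones while Hoxd13 was not called (log2 fold change 0.21 ± 0.28). Hoxa9 read 5.53 and 5.51 TPM in MEF and 5.29 and 5.59 TPM at D3, a log2 fold change of 0.05 ± 0.07 that was within its error. Next to it, Hoxa10, a gene of the reproductive tract and limb, dropped from 9.14 and 9.93 to 4.28 and 4.74 TPM (log2 fold change -1.08 ± 0.08, edgeR adjusted p = 1.1e-08). Scaled by library size alone, which moved the median of all genes to 0.29, the 11 lower genes became 8, since Hoxa10 (-0.88), Hoxc9 (-0.96) and Hoxd10 (-0.81) no longer passed the fold minimum. In HoxB the turn lay between Hoxb8 and Hoxb9, whose starts are 10.4 kb apart. Hoxb8 held at 2.28 and 2.2 TPM in MEF and 2.36 and 2.26 TPM at D3 (log2 fold change -0.12 ± 0.15), while Hoxb9, a thoracic gene, fell from 13.8 and 13 to 1.9 and 1.93 TPM. The log2 fold change of Hoxb9 was -2.87 ± 0.07 (edgeR adjusted p = 8.1e-14). Among HoxC genes Hoxc10, a lumbar gene, fell from 9.31 and 9.45 to 2.35 and 2.45 TPM (log2 fold change -1.99 ± 0.08), and Hoxc8, a gene of the thorax and of forelimb motor neurons, read 12.1 and 11.1 TPM in MEF and 14.2 and 15.4 TPM at D3 (0.33 ± 0.07, under the fold minimum). Hoxd8 fell from 5.79 and 5.26 to 1.62 and 1.33 TPM (log2 fold change -1.75 ± 0.12). The call of Hoxd10 was lost without MEF replicate 2 or D3 replicate 1 (-0.92 and -0.99), that of Hoxb13 without MEF replicate 1 or D3 replicate 2 (edgeR adjusted p = 0.063 and 0.054) and that of Hoxd1, with 3 and 5 reads in MEF and none at D3, without MEF replicate 2 (edgeR adjusted p = 0.053).

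**Figure D3:**
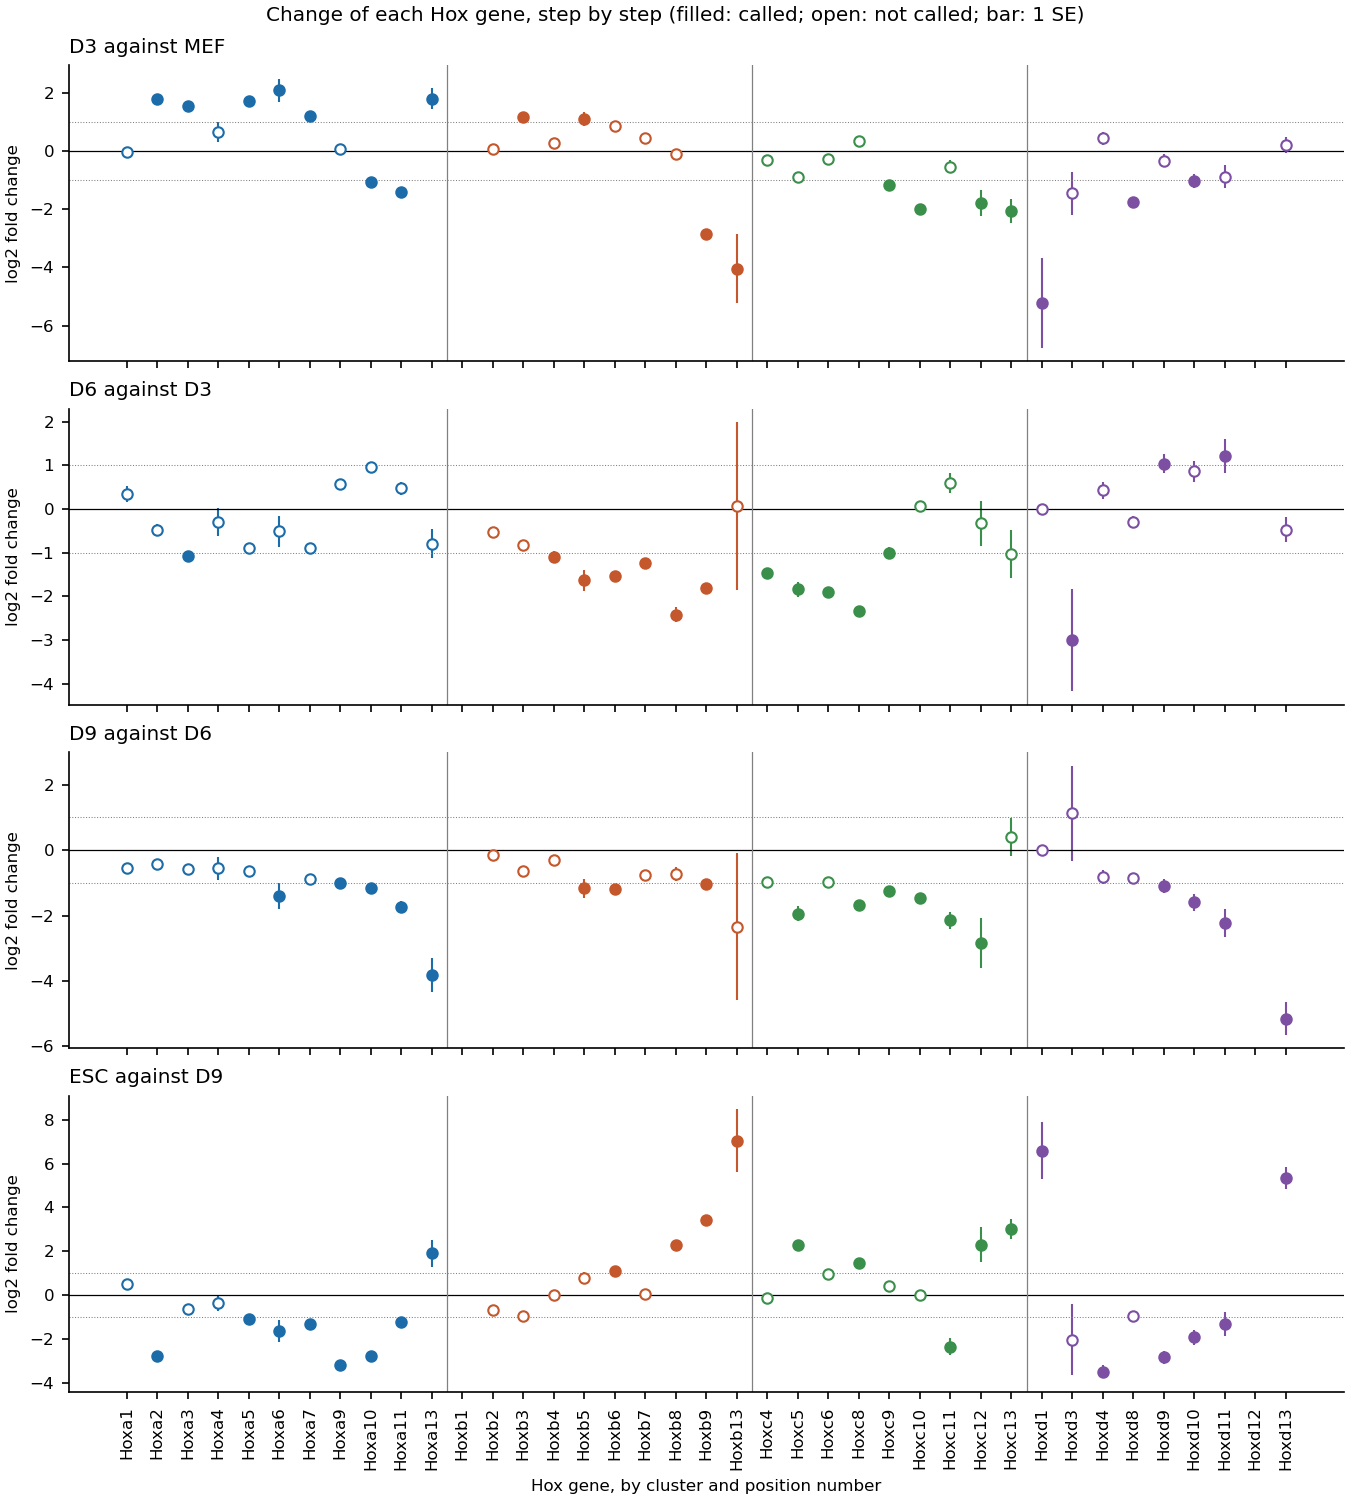
Log2 fold change of each tested Hox gene in 4 comparisons, ordered by cluster and number, with bars of 1 SE. Filled points were called, open points were not, and dotted lines mark the fold minimum of 1. At D3 the HoxA genes from Hoxa2 to Hoxa7 lie mostly above 1 and the posterior genes mostly below 0, and in ESC against D9 the HoxB and HoxC genes tend to lie above 0 and most HoxA genes below.

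The promoters of 4 genes that took different courses at D3 and D6 are shown, since the genes lie in the same clusters as neighbours that moved otherwise. They were chosen after their values were seen, among those whose RefSeq start equals the annotated gene start. Each run is the 250 bases before the start on the gene's strand, from RefSeq (GRCm38.p6), with capitals marking any match, on either strand, of 4 motifs. These were TATAAA as the TATA box, the NF-Y box written as CCAAT, the Sp1 box written as GGGCGG, and a Klf-type box written as GGGNGNGGC. The last can overlap the Sp1 box. Hoxa5 (chr6:52204588-52204837, minus strand) was higher at D3, Hoxa10 (chr6:52240855-52241104, minus strand) lower at D3 and back near its MEF level at D6, Hoxb8 (chr11:96281655-96281904, plus strand) lower first at D6, and Hoxd8 (chr2:74704365-74704614, plus strand) lower from D3.
Hoxa5: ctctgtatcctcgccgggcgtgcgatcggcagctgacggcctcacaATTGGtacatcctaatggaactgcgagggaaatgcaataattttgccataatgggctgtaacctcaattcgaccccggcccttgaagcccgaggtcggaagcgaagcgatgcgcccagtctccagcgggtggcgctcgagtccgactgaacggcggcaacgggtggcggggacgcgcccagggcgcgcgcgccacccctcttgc
Hoxa10: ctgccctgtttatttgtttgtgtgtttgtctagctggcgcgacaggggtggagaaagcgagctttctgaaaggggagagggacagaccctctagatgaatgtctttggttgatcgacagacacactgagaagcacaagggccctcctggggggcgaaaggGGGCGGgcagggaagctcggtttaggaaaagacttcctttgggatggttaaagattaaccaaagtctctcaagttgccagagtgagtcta
Hoxb8: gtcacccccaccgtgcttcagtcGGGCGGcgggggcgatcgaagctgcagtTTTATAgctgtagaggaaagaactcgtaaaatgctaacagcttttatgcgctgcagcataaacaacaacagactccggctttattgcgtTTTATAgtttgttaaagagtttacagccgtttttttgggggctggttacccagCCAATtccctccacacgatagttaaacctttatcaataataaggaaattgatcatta
Hoxd8: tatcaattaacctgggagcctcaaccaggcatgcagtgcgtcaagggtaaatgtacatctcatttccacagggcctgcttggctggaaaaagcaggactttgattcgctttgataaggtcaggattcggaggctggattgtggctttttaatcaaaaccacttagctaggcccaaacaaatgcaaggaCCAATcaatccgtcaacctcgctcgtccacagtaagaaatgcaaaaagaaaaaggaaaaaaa
Hoxb8 held TATAAA 2 times, with CCAAT and GGGCGG 1 time each. Hoxa5 and Hoxd8 held CCAAT 1 time each, and Hoxa10 held GGGCGG 1 time. For Hoxa10, TATAAA and CCAAT were found only outside the window shown, before another RefSeq start. The Klf-type box was found in none of the 4. RefSeq windows were matched for 22 genes, 24 windows in all. CCAAT was in 14 of the 24 and in 33.8% of all 32851 windows, GGGCGG in 10 against 32.7%, TATAAA in 4 against 12.4%, and GGGNGNGGC in 4 against 23.3%. The median number of CpG dinucleotides was 12.5 in the Hox windows and 6 in all windows, with 28 in Hoxa5 and 6 in Hoxd8.

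From D3 to D6 the fall moved to the central genes of HoxB and HoxC. In that step 13 Hox genes were lower and 2 higher, against 10.2% and 9.26% of all tested genes, and the Hox median log2 fold change was -0.52 (0.03 over all genes). The lower genes included 6 of 9 tested in HoxB, 5 of 9 in HoxC, 1 of 11 in HoxA and 1 of 8 in HoxD. By position they were 9 of the 15 central genes, and Hoxa9, Hoxa10 and Hoxa11 were not among them. Sorting began at D6, so time and selection for SSEA+ cells cannot be told apart in this step. The 14 fibroblast genes, all lower in this step, moved with it.

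Hoxc8 fell from 14.2 and 15.4 TPM at D3 to 2.76 and 2.96 TPM at D6, a log2 difference of -2.34 ± 0.08 (edgeR adjusted p = 5.9e-12). Hoxc6, a thoracic gene and the highest member over all libraries, fell from 11.2 and 12.9 to 3.04 and 3.77 TPM (log2 fold change -1.89 ± 0.09). Hoxb8, which acts in the spinal cord and in blood progenitors, fell from 2.36 and 2.26 to 0.368 and 0.266 TPM (log2 fold change -2.42 ± 0.17). These HoxB and HoxC levels did not overlap between the days. Hoxb6 fell by 1.54 ± 0.13 and Hoxb7 by 1.24 ± 0.12 on the log2 scale. Hoxb9 went on down, to 0.492 and 0.557 TPM. Among the HoxA genes that were higher at D3, Hoxa3 was called lower at D6 (log2 fold change -1.08 ± 0.11) and Hoxa5 stood at 3.55 and 3.23 TPM, under the fold minimum at -0.89 ± 0.09. The call of Hoxd3 was lost without D3 replicate 1 or D6 replicate 2 (edgeR adjusted p = 0.25 and 0.2), and that of Hoxc9 without replicate 1 of either day (log2 fold change -0.96 in both).

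The 2 genes called higher at D6 were the posterior HoxD genes Hoxd9 and Hoxd11, which act in limb patterning. Of the other posterior HoxA and HoxD genes tested none was called, and Hoxa13 (-0.79) and Hoxd13 (-0.47) had negative log2 fold changes. Hoxa10 returned to 9.5 and 8.24 TPM (log2 fold change 0.97 ± 0.08, under the fold minimum), and Hoxa9 reached its highest level, 9.56 and 8.47 TPM (0.57 ± 0.07). Hoxd11 read 0.69 and 0.531 TPM at D3 and 1.24 and 1.69 TPM at D6 (log2 fold change 1.22 ± 0.39, edgeR adjusted p = 0.017), and Hoxd9, named after its value was seen, 0.653 and 0.607 TPM and then 1.2 and 1.36 TPM (1.04 ± 0.22). Neither call held without D3 replicate 2 or without D6 replicate 2, where Hoxd11 had edgeR adjusted p = 0.1 and 0.13 and Hoxd9 log2 fold changes of 0.95 and 0.94. One of the 2, Hoxd9, was also not called when the MEF or the ESC libraries were left out of the fit (0.99 and 1.0, the second just under the minimum).

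From D6 to D9, both sorted, the genes that fell were mostly posterior. No Hox gene was called higher and 18 were lower, against 5.18% and 2.68% of all tested genes. Without the fold minimum, edgeR called 0 higher and 30 lower (3162 and 3819 of all 20165 genes). DESeq2, with the fold minimum, also called 0 higher (825 of all genes). The lower genes were 13 of the 15 posterior genes, 5 of the 15 central genes and 0 of the 7 anterior genes. The median log2 fold change was -1.01 over the Hox genes, or -0.97 with Hoxb13 and Hoxd1, which had no reads at D9, set to a floor of 3 reads per library, and 0 over all genes.

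Hoxd13, which shapes digits, nearly disappeared in this step, from 37 and 39 reads at D6 to 1 and 1 at D9 (log2 fold change -5.15 ± 0.5, edgeR adjusted p = 1.9e-06). Hoxa13 went from 31 and 26 reads to 2 and 2. Hoxa10 fell from 9.5 and 8.24 to 3.45 and 3.81 TPM (log2 fold change -1.16 ± 0.08) and Hoxc10 from 2.37 and 2.65 to 0.855 and 0.864 TPM (-1.45 ± 0.1). The increase of Hoxd11 at D6 was followed by 0.243 and 0.263 TPM at D9 (log2 fold change -2.24 ± 0.43). Hoxc5 and Hoxc8 kept falling, by 1.94 ± 0.24 and 1.69 ± 0.12 on the log2 scale. Hoxa2 (1.52 and 1.69 TPM) and Hoxb2 (2.54 and 2.77 TPM), both hindbrain genes, moved by -0.42 ± 0.14 and -0.14 ± 0.09. Calls close to the limits went without single libraries: Hoxa6 and Hoxb9 without D6 replicate 2 or D9 replicate 1, Hoxb5 without D6 replicate 2 or D9 replicate 2, Hoxc12 without D9 replicate 2, and Hoxa9 and Hoxd9 without D9 replicate 1.

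Over the whole course, D9 against MEF, 25 Hox genes were lower and none higher, against 19.8% and 24.1% of all tested genes. No Hox gene was called higher by DESeq2 either (3822 of all genes were). Without the fold minimum, edgeR called 1 higher (Hoxa2) and 29 lower (8414 and 6684 of all genes). The lower genes were all 9 of HoxC, 7 of 9 tested in HoxB, 6 of 8 in HoxD and 3 of 11 in HoxA. The median log2 fold change was -3.37 in HoxC and -0.27 in HoxA. Over all Hox genes tested it was -1.9, or -1.77 with Hoxb13 and Hoxd1 at the floor of 3 reads, against 0.19 over all genes. Hoxa5 was near its MEF level (2.07 and 2.01 TPM, log2 fold change 0.18 ± 0.11), and Hoxa2 ended above MEF without passing the fold minimum (0.87 ± 0.15). With library-size scaling, which moved the median of all genes from 0.19 to 0.48, Hoxa2 passed it at 1.16, and Hoxa10 (-0.98) and Hoxb4 (-0.84) dropped out. Of the 25, 24 had at least 6 reads in each MEF library. The exception was Hoxd1, with 3 and 5 reads in MEF and none at D9.

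The 4 paralogs with the number 9 show how far apart clusters ran. Hoxb9 declined in every step, to 0.246 and 0.259 TPM at D9, a log2 fold change from MEF of -5.73 ± 0.1 (edgeR adjusted p = 6.8e-16). Hoxc9, which sets thoracic motor neuron identity, also declined in every step, from 4.92 and 4.38 to 0.549 and 0.375 TPM (log2 fold change -3.43 ± 0.14). Hoxa9, by contrast, was at 4.35 and 4.16 TPM at D9 (-0.39 ± 0.08), and Hoxd9 at 0.479 and 0.639 TPM (-0.39 ± 0.22, edgeR adjusted p = 0.13). Hoxb9 was the highest of the 4 in MEF and Hoxa9 the highest at D9. Hoxc9 and Hoxd9 are named here for their number, after their values were seen.

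**Figure D4:**
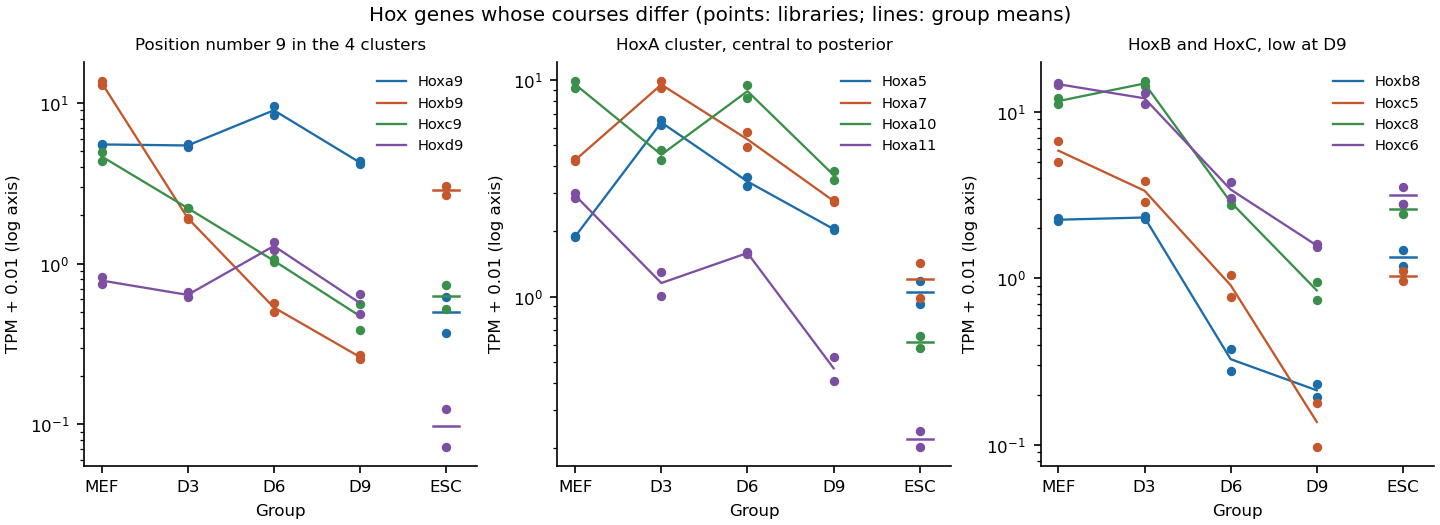
TPM + 0.01 on a log axis for 12 Hox genes in the 10 libraries, with points for libraries and lines for group means. In the left panel Hoxb9 drops from above 13 TPM to below 0.3 TPM at D9 while Hoxa9 stays above 4 TPM, in the middle Hoxa5 and Hoxa7 peak at D3 where Hoxa10 dips, and on the right the D9 points of Hoxb8, Hoxc5, Hoxc6 and Hoxc8 lie below those of all other groups.

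ESC differed from D9 in both directions. Against D9, 11 Hox genes were higher and 12 lower in ESC, with 18.6% and 14.3% over all tested genes. The higher genes were 4 of 9 tested in HoxB, 4 of 9 in HoxC, 2 of 8 in HoxD and 1 of 11 in HoxA, and the lower ones 7 in HoxA, 4 in HoxD, 1 in HoxC and 0 in HoxB. All 11 higher genes had fallen between MEF and D9. Against MEF, ESC had 25 lower and 0 higher Hox genes (20.6% and 25.5% of all genes). DESeq2 called 28 lower and 0 higher (4179 and 4394 of all genes). Without the fold minimum, edgeR called 30 lower and 0 higher (7302 and 8140 of all genes). The call of Hoxa6 against MEF was lost without MEF replicate 2 or ESC replicate 2 (edgeR adjusted p = 0.17 and 0.16). With library-size scaling 21 were lower, since Hoxa6, Hoxb2, Hoxb3 and Hoxb4 were not called.

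Hoxb9 read 3.05 and 2.68 TPM in ESC, well above the D9 values of 0.246 and 0.259 TPM (log2 fold change 3.41 ± 0.11, edgeR adjusted p = 2.8e-12) and below MEF (-2.32 ± 0.07). Hoxb8 was at 1.18 and 1.48 TPM against 0.221 and 0.184 TPM at D9 (log2 fold change 2.29 ± 0.19). Hoxc8 was at 2.8 and 2.43 TPM against 0.734 and 0.939 TPM (1.47 ± 0.12), and Hoxc5 at 0.952 and 1.1 TPM against 0.168 and 0.086 TPM (2.26 ± 0.23). In each of these the ESC libraries lay between those of D9 and MEF. Some tail-end genes stood near their MEF level: Hoxd13 had 45 and 48 reads in ESC against 32 and 50 in MEF, and Hoxc13, a hair gene, 65 and 50 against 35 and 43. Hoxd1 had 12 and 13 reads in ESC and none at D3, D6 or D9. The calls of Hoxa13 and Hoxc12 rest on fewer than 10 reads per ESC library, and neither held without D9 replicate 2 (edgeR adjusted p = 0.077 and 0.1) or ESC replicate 2 (0.06 and 0.14), nor Hoxc12 without D9 replicate 1. Hoxb6 was at the fold minimum (1.08 ± 0.16) and missed it without D9 replicate 2 or ESC replicate 1.

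The HoxA genes that had lasted to D9 were low in ESC. Hoxa9 was at 0.361 and 0.614 TPM in ESC against 4.35 and 4.16 TPM at D9 (log2 fold change -3.19 ± 0.11, edgeR adjusted p = 6.6e-12). Hoxa10 was at 0.567 and 0.649 TPM (-2.78 ± 0.12), Hoxa2 at 0.224 and 0.295 TPM (-2.77 ± 0.18) and Hoxd4, a hindbrain gene, at 0.132 and 0.072 TPM against 1.02 and 0.918 TPM (-3.51 ± 0.3). The call of Hoxa5 was lost without ESC replicate 1 (-0.93), that of Hoxa6 without D9 replicate 2 or ESC replicate 2 (-0.88 and -1.12), and that of Hoxd11 without any one of D9 replicate 1, D9 replicate 2 and ESC replicate 1 (-1.4, -1.2 and -0.5).

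The fibroblast genes rose between D9 and ESC as well, 13 of 14 called higher. Relative to MEF, their mean TPM in ESC was 1.17% to 14.8% (median 8.96%), while in the 29 Hox genes with at least 0.5 TPM in MEF it was 4.81% to 123% (median 21.4%). Of these 29, 17 were above every fibroblast gene in ESC, among them Hoxb9 at 21.4%, Hoxc8 at 22.6%, Hoxc5 at 17.5%, Hoxb8 at 59.4% and Hoxb6 at 68.2%. The other 12, Hoxa9, Hoxa10 and Hoxa11 among them, were within the fibroblast range. At D9 the fibroblast genes were at 0% to 2.54% of MEF. Of the 29 Hox genes, 27 were above all of them, the exceptions being Hoxb9 (1.88%) and Hoxc5 (2.17%). The share of all genes above the fibroblast genes was not taken, so these counts show no trait particular to Hox genes. Over all tested genes the median log2 fold change from MEF was 0.19 at D9 and 0.1 in ESC. Whether the feeders express Hox genes in the proportions of these MEF libraries was not measured, and their part in the ESC values was not tested. The macrophage genes Cd68 and Lyz2 were also higher in ESC than at D9, 18.5 and 23.8 TPM on average against 4.3 and 0.441 TPM.

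**Figure D5:**
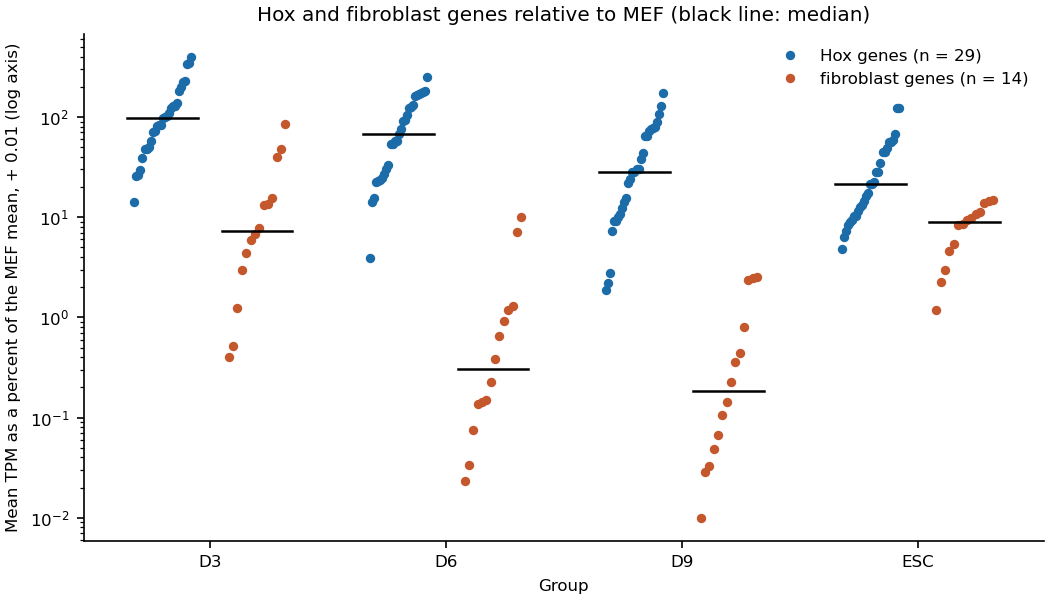
Mean TPM of each of 29 Hox genes (blue) and 14 fibroblast genes (orange) as a percent of its MEF mean, plus 0.01, on a log axis, with black lines at the medians. The medians are 28.2% and 0.175% at D9, and 21.4% and 8.96% in ESC, where the fibroblast genes end at 14.8%.

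Paralogs resemble each other, so it was asked how much of each gene a read of 50 bases could confuse. Of the 39 genes, 24 share no run of 50 bases with any other quantified gene and 30 share under 1% of their windows. The largest shares come from overlapping transcripts within a cluster: 60.2% of Hoxd3 and 46.8% of Hoxd4, which overlap each other and the readthrough gene Gm28230, and 12.7% of Hoxa2, which overlaps Gm28308. Values of Hoxd3 and Hoxd4 are therefore uncertain. With the 16 genes that overlap another gene left out, the summed TPM ratio to MEF was -2.49 in place of -1.87 at D9 and -2.1 in place of -2.06 in ESC on the log2 scale, so that D9 then lay below ESC.

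Splitting of a gene's reads over its transcripts, as estimated by the authors' quantification, moved in a few genes. For Hoxc4, the transcript of 1983 bases took 60.2% and 59.0% of the gene's reads in MEF, 78.0% and 74.2% at D3, 92.3% and 87.2% at D6 and 76.7% and 77.5% in ESC. No test was made of these shares. For Hoxb6, the transcript of 1321 bases took 62.6% and 57.6% in ESC and 40.8% and 31.4% in MEF, but 2.0% and 44.5% in the D9 libraries, which shows how poorly low counts are split. The Hoxa7 transcript annotated as subject to nonsense-mediated decay took 77.2% to 85.5% of the gene's reads in all 10 libraries.

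Other genes inside the clusters moved partly with their Hox neighbours. Of 46 such genes 21 could be tested, and 7 were higher and 3 lower at D3 than in MEF, with 14.6% and 14.5% over all genes. The antisense transcripts Hoxaas2 and Hoxaas3 rose with the anterior and central HoxA genes they lie among. Hoxaas2 went from 0.335 and 0.319 to 1.17 and 1.06 TPM (log2 fold change 1.67 ± 0.24). Hoxaas3 went from 0.245 and 0.168 to 0.928 and 1.23 TPM (2.23 ± 0.45). By contrast, Hoxb5os, antisense to Hoxb5, was called lower at D3 while Hoxb5 was called higher. At D9 against MEF, 1 gene inside the clusters was higher and 8 were lower, with 24.1% and 19.8% over all genes. The largest called log2 fold changes were those of Hoxb5os (-4.39 ± 0.54), Hotair (-3.07 ± 0.72) and Hoxd3os1 (-2.27 ± 0.54). Hoxa11os, antisense to Hoxa11, held at 3.6 and 3.31 TPM in MEF and 4.49 and 4.76 TPM at D6 and fell to 1.4 and 0.963 TPM at D9 (log2 fold change to D6 -1.84 ± 0.26), while Hoxa11 had already gone from 2.84 and 3.0 TPM in MEF to 1.29 and 1.0 TPM at D3. Hotairm1, a noncoding RNA at the anterior end of HoxA, was at 54.7 to 88.0 TPM through D6 and at 13.9 and 23.2 TPM in ESC. Whether strand was used in the quantification is not given in the sources used here, so reads of a Hox gene and its antisense partner may not be told apart.

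Genes just outside the clusters were also counted. Of the 24 nearest protein-coding neighbours, 3 on each side of each cluster, 23 were tested, and at D9 against MEF 4 were higher and 1, Atf7, was lower, with 24.1% and 19.8% over all genes. In ESC against MEF, 6 were higher and 1 lower, with 25.5% and 20.6% over all genes. The higher ones included Ttll6, 28.9 kb beyond the Hoxb13 end of HoxB, at 0.0116 and 0.0 TPM in MEF and 1.33 and 1.22 TPM at D3, and Calcoco2, 82.4 kb beyond it, at 0.0637 and 0.0101 TPM in MEF, 3.95 and 3.98 TPM at D9 and 34.4 TPM in both ESC libraries. Evx1, next to Hoxa13, was also called higher (edgeR adjusted p = 0.015), with 0 reads in both MEF libraries and 4 and 12 reads at D9.

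Hox proteins bind DNA with TALE homeodomain partners of the Pbx, Meis and Pknox families. Of 9 such genes tested, 3 were lower at D9 than in MEF and 1 higher, against 19.8% and 24.1% over all genes. Meis2, the most abundant, went from 67.2 and 68.5 to 24.6 and 20.8 TPM (log2 fold change -1.18 ± 0.05), Meis3 fell by 2.84 ± 0.13 on the log2 scale, and Pbx4 rose by 2.97 ± 0.28. Of 12 tested genes known to act upstream of Hox genes, 8 were lower at D9 and 1, Cyp26a1, was higher, with 19.8% and 24.1% over all genes. Cdx1 and Wnt3a were not called, and Cdx2 and Cdx4 could not be tested. Aldh1a2, which makes retinoic acid, went from 2.31 and 2.08 TPM in MEF to 0.0672 and 0.0769 TPM at D3 and is listed at 0 at D9, and Cyp26b1, which degrades it, fell by 5.11 ± 0.16 on the log2 scale by D9. T, a mesoderm factor, had at most 0.306 TPM in any library, and Cdx2 at most 0.0286 TPM. Of the chromatin genes, 8 of 17 Polycomb genes, whose products keep genes silent, were higher and 1 lower at D9 than in MEF (24.1% and 19.8% over all genes), led by the chromodomain gene Cbx7 (0.274 and 0.513 to 26.8 and 19.3 TPM, log2 fold change 5.62 ± 0.08), Jarid2 (2.45 ± 0.04) and Phc1 (2.4 ± 0.04). Of 10 trithorax-side genes, whose products keep genes active, 5 were higher and 0 lower (24.1% and 19.8% over all genes), led by Dpy30 (2.36 ± 0.07), Wdr5 (2.34 ± 0.05) and Kdm6a (1.66 ± 0.06).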

How the data were processed

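RNA was measured by stranded, poly(A)-based sequencing with single reads of 50 bases, per the labels' protocols. The authors quantified transcripts with Salmon 0.8.2 on mm10, per the submitters' processing notes, and deposited an estimated count and a TPM for each transcript. Whether strand entered the quantification is not given in the sources used here. Both were summed per gene, and the estimated counts were rounded. Groups came from the labels.

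Genes passing filterByExpr (minimum count 10, total 15) were tested with edgeR 4.0.16 in R 4.3.3, by a quasi-likelihood fit over all 10 libraries with TMM scaling, in 6 comparisons. P-values were adjusted by Benjamini-Hochberg over all 20165 genes tested, and SE is the fold change divided by the square root of F. The procedure was tested on simulated data. DESeq2 1.42.0, limma 3.58.1 and other filters and scalings were alternatives. Fits without the MEF or the ESC libraries were chosen after seeing the data.

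Full values were given by a rule: the 3 genes highest in MEF per cluster, genes lower at D9 than in MEF with an opposite call elsewhere, and up to 12 genes called higher in ESC than at D9 or above MEF in any group. Of other lists, the 3 largest called changes at D9 against MEF were named, except in the lists of cell type markers. Genes named beyond the rule were picked after their values were seen. The members and lists were chosen with earlier results of these data known. Replicate numbers did not pair samples: the mean correlation of same-numbered deviations was 0 (-0.02 to 0.022). Markers of endothelial, muscle, neural and epithelial cells were also looked up, and of these 3 of 4, 1 of 3, 2 of 4 and 3 of 4 were higher at D9 than in MEF and 1, 1, 1 and 0 lower (Emcn, Myog and Sox10), with 24.1% and 19.8% over all genes.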

Additional observations from a re-analysis of the deposited data

How the results depend on the processing

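Single-gene values under the alternatives covered called changes of the 28 genes picked by the rule for full values, where still tested. Of these 1225 values, 1103 kept direction and call, 122 lost the call and 0 reversed. Of 98 such calls, 51 could still be tested under the filter of 10 CPM in 2 libraries. Calls of genes outside the rule, such as Hoxc9, Hoxd3 and Hoxd9, are not among the 1225. A filter of 10 CPM in 2 libraries left 18 Hox genes tested, among 11699 genes in all. Of the 18, 4 were higher and 6 lower at D3 than in MEF (1462 and 1575 of all genes). At D6 against D3, 0 were higher (793 of all), and at D9 against D6, 8 were lower (300 of all). Against MEF, 12 were lower at D9 (2491 of all) and 15 in ESC (2748 of all). In ESC against D9, 4 were higher and 5 lower (1502 and 1454 of all). With limma on log2(TPM + 1), which shrinks changes of low genes, fewer of all 20165 genes were called as well. At D3 against MEF, 4 Hox genes were higher and 3 lower (1279 and 1380 of all). At D6 against D3 the counts were 0 and 6 (581 and 813 of all). At D9 against D6, 2 were lower (153 of all, 541 in the main fit). Against MEF, 13 were lower at D9 (2562 of all) and 14 in ESC (2276 of all). In ESC against D9, 1 was higher and 3 lower (1699 and 1063 of all). For D6 against D3 the 2 higher genes became 1 with limma on log2(TPM + 0.1) and 7 without a fold minimum. They became 1 in fits without the MEF or without the ESC libraries, both chosen after seeing the data. Over all genes, 1867 higher became 1220, 5890, 1777 and 1711 in the same order. Without a fold minimum, 30 were lower at D9 than at D6 and 1 higher at D9 than in MEF (3819 and 8414 of all genes). Library-size scaling gave 1 higher at D9 than in MEF and 1 higher in ESC than in MEF (Hoxd1), as did fitting only these 2 groups. Over all genes the counts were 6241 and 6553, and 5010 of 18672 in the fit of ESC and MEF only. By library-size scaling the lower genes were 8 of the 11 at D3, 23 of the 25 at D9 and 21 of the 25 in ESC. Each is against MEF, with 2483, 3284 and 3152 lower over all genes.

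Leaving out 1 library reversed the direction of 0 of 392 values for called changes of the 28 genes picked by the rule. A group that kept 1 library was assumed to vary like the others, so counts of calls are not given for these fits. With 1 library left out, the log2 ratio of summed TPM to MEF ranged from -0.18 to -0.08 at D3 and -0.85 to -0.77 at D6. It ranged from -1.9 to -1.84 at D9 and -2.1 to -2.03 in ESC. Summing TMM-scaled CPM gave -0.2 at D3, -0.9 at D6 and -2.16 in ESC. Without Hoxc6 the ratio was -0.7 at D6 and -1.75 at D9, and without genes that overlap another gene -0.29, -1.29 and -2.49 at D3, D6 and D9 and -2.1 in ESC, which turns the order of D9 and ESC. The cause of these shifts was not tested.

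With the replicate number as a block, the counts were 8 higher and 11 lower, 2 and 12, 0 and 18, 0 and 25, 11 and 12, and 0 and 25 in the 6 comparisons. Over all genes they were 2885 and 2863, 1796 and 2015, 983 and 518, 4747 and 3952, 3674 and 2822, and 5067 and 4094. Hoxd3 at D6 against D3 was the 1 call lost. Genes with few reads, such as Hoxd1, Hoxb13 and Hoxc12, limit what depth can show.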
